A study of Mus musculus with 14 samples.

Results

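Transcripts of 8 steroidogenesis genes (Star, Cyp11a1, Fdx1, Fdxr, Cyp19a1, Hsd17b1, Hsd17b7 and Nr5a2) were followed through 14 RNA-seq libraries of full-grown, germinal vesicle-intact mouse oocytes. They were taken by name from the 20337 genes with a symbol in the count files, and the transcript with the highest mean count stood for each gene. All 8 were found. The study compared oocytes that lack the RNA-cleaving activity of AGO2, oocytes that lack Ago2 and oocytes that lack Dicer with their controls. Each library held 20 oocytes, pooled from 3 mice by the design text and from 3 or 4 by the study's methods. The females were 4 to 6 weeks old and had received 5 IU of eCG (equine chorionic gonadotropin, which makes follicles grow) 48 h earlier. They had a mixed background that was largely C57BL6. Attached cumulus cells were stripped off with a pipette.

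The 3 Ago2 fl/fl libraries came from females with floxed Ago2 and served as the control of the Ago2 groups. The 3 Ago2 ADH libraries came from females with 1 floxed allele and 1 knock-in allele whose protein binds small RNAs but cannot cut their targets. Cre under the oocyte-specific Zp3 promoter deleted the floxed allele there, so only the knock-in allele was left in the oocyte. The 2 Ago2 null libraries came from floxed females with the same Cre. The 3 Dicer WT libraries were the control of the 3 libraries labelled Dicer KO. By the study's methods those came from mice in which Dicer is null specifically in the oocyte. AGO2 made before Cre acts may persist in the growing oocyte, and the Ago2 fl/fl group carries no Cre. The libraries held 29380403 to 58285057 counts on transcripts, where 3 counts equal 0.0515 to 0.102 CPM (read counts relative to the scaled total of their library). The methods describe replicates as separate collections of pooled oocytes, so p-values measure the spread between such pools.

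The targeted genes were read first. Ago2 counts were 1416, 1509 and 1258 in Ago2 fl/fl, 753, 709 and 535 in Ago2 ADH, and 401 and 278 in Ago2 null oocytes, and the 3 groups did not overlap. In Ago2 ADH Ago2 was lower by a log2 fold change of -0.87 (adjusted p = 1.27e-07). Dicer1 counts were 28986 to 32662 in Dicer WT and higher, at 51298 to 59759, in the libraries labelled Dicer KO (log2 fold change 1.26, SE 0.0629, adjusted p = 6.11e-12). Dicer1 was also higher by edgeR in Ago2 ADH (0.674, adjusted p = 2.11e-10) and in Ago2 null oocytes (0.594, adjusted p = 6.41e-08). The Dicer1 count covers the whole transcript and the deleted part is not separable in it, so it does not check the deletion. Every direction given for Dicer KO therefore rests on the label. The share of reads with several alignments was 33.2% to 34.6% in Ago2 fl/fl, 57.3% to 58.1% in Ago2 ADH and 57.0% to 58.3% in Ago2 null libraries. It was 25.6% to 31.5% in Dicer WT and 44.4% to 49.6% in the libraries labelled Dicer KO. These reads enter no transcript count, and their part in the results was not tested.

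Steroid hormones are made from cholesterol in a chain of enzymes. STAR carries cholesterol into mitochondria, CYP11A1 cuts its side chain to give pregnenolone, and FDXR and FDX1 pass electrons to CYP11A1. HSD3B1 and CYP17A1 act next, and CYP19A1, the aromatase, and HSD17B1 complete oestradiol in granulosa cells. HSD17B7 serves both oestradiol and cholesterol synthesis, and NR5A2 is a nuclear receptor that drives many genes of this chain. In the ovary the chain belongs to theca, granulosa and luteal cells, and the full-grown oocyte is not known as a steroid-producing cell. Oocytes freed of cumulus can keep traces of such cells or their RNA. In these bulk samples fewer cells of a type and less RNA per cell cannot be told apart.

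Promoters are shown for the member whose response differed most between the mutants (Cyp11a1, with 2 start sites in RefSeq) and for the member that was higher in all mutants (Hsd17b7). The sequences are RefSeq's in GRCm38.p6, 300 bases each from 250 before to 50 after a start, read on the strand of the gene. The Cyp11a1 windows are chr9:57997774-57998073 and chr9:58014702-58015001 on the plus strand, and the Hsd17b7 window is chr1:169969156-169969455 on the minus strand. Capitals mark CCAAT on either strand, which is the only one of the motifs searched that these windows held.
Cyp11a1 start 1: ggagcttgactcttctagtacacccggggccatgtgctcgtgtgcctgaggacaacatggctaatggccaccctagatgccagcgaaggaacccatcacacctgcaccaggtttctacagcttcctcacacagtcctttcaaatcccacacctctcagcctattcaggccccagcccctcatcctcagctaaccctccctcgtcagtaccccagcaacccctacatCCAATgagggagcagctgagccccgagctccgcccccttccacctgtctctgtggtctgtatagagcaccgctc
Cyp11a1 start 2: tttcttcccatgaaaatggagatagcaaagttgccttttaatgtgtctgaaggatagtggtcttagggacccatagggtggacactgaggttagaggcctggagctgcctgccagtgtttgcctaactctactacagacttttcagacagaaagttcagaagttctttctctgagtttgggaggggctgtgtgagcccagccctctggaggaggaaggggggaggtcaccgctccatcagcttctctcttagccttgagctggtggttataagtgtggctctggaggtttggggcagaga
Hsd17b7: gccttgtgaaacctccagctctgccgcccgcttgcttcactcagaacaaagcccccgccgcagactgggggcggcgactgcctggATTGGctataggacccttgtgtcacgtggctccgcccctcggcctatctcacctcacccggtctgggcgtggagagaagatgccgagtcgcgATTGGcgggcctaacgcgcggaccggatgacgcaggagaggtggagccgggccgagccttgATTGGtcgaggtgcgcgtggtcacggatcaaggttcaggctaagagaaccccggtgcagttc
The other motifs were AAGGTCA, which NR5A receptors bind, the cAMP response element TGACGTCA, and TATAAA. Both strands were read, and no matches overlapped in these 3 windows. Hsd17b7 held CCAAT 3 times, as did 3.37% of 32851 promoters at 3 or more. Cyp11a1 held it 1 time at start 1, 24 bases before the start, and none at start 2, and 37.4% of all promoters held it at least 1 time. AAGGTCA was in none of the 10 start windows found for 6 members and in 4.72% of all promoters. TGACGTCA was in none of them and in 1.79% of all promoters. TATAAA or its reverse was in 13.6% of all promoters and, among the members, in windows of Cyp19a1 and Nr5a2. The table gave no window for Star or Hsd17b1. These are letters in a window and not binding sites, and the counts do not tell the Cyp11a1 starts apart. GENCODE begins Cyp11a1 at chr9:58006411, which is neither of the 2 RefSeq starts and has no window here. Which start the counted transcript uses was not settled.

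Compared per length, the 8 members stood at 2 levels. In Ago2 fl/fl oocytes Nr5a2 stood at 21.2 ± 2.11 CPM per kb (SD, n = 3), Hsd17b7 at 14.7 ± 0.807, Fdx1 at 14.4 ± 1.49 and Cyp19a1 at 14.1 ± 1.18. The last 3 overlapped with their neighbours in this order. Fdxr at 0.848 ± 0.120, Cyp11a1 at 0.665 ± 0.241, Hsd17b1 at 0.224 ± 0.0493 and Star at 0.194 ± 0.0779 CPM per kb were lower, with overlap between Fdxr and Cyp11a1 and between Hsd17b1 and Star. The value of Nr5a2 depends on which transcript stands for it, since another RefSeq transcript with a length of 4733 bases, against 1756, had 7.01 CPM per kb over the 14 libraries. In Dicer WT oocytes the same 4 genes led, with Cyp19a1 at 23.0 ± 2.08 and Nr5a2 at 21.9 ± 0.419 CPM per kb, which overlapped. The oocyte genes Gdf9 and Zp3 reached means of 2587 and 1464 CPM per kb. So 4 members had 355 to 5353 counts in a library, and the other 4 had 2 to 410.

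**Figure D1:**
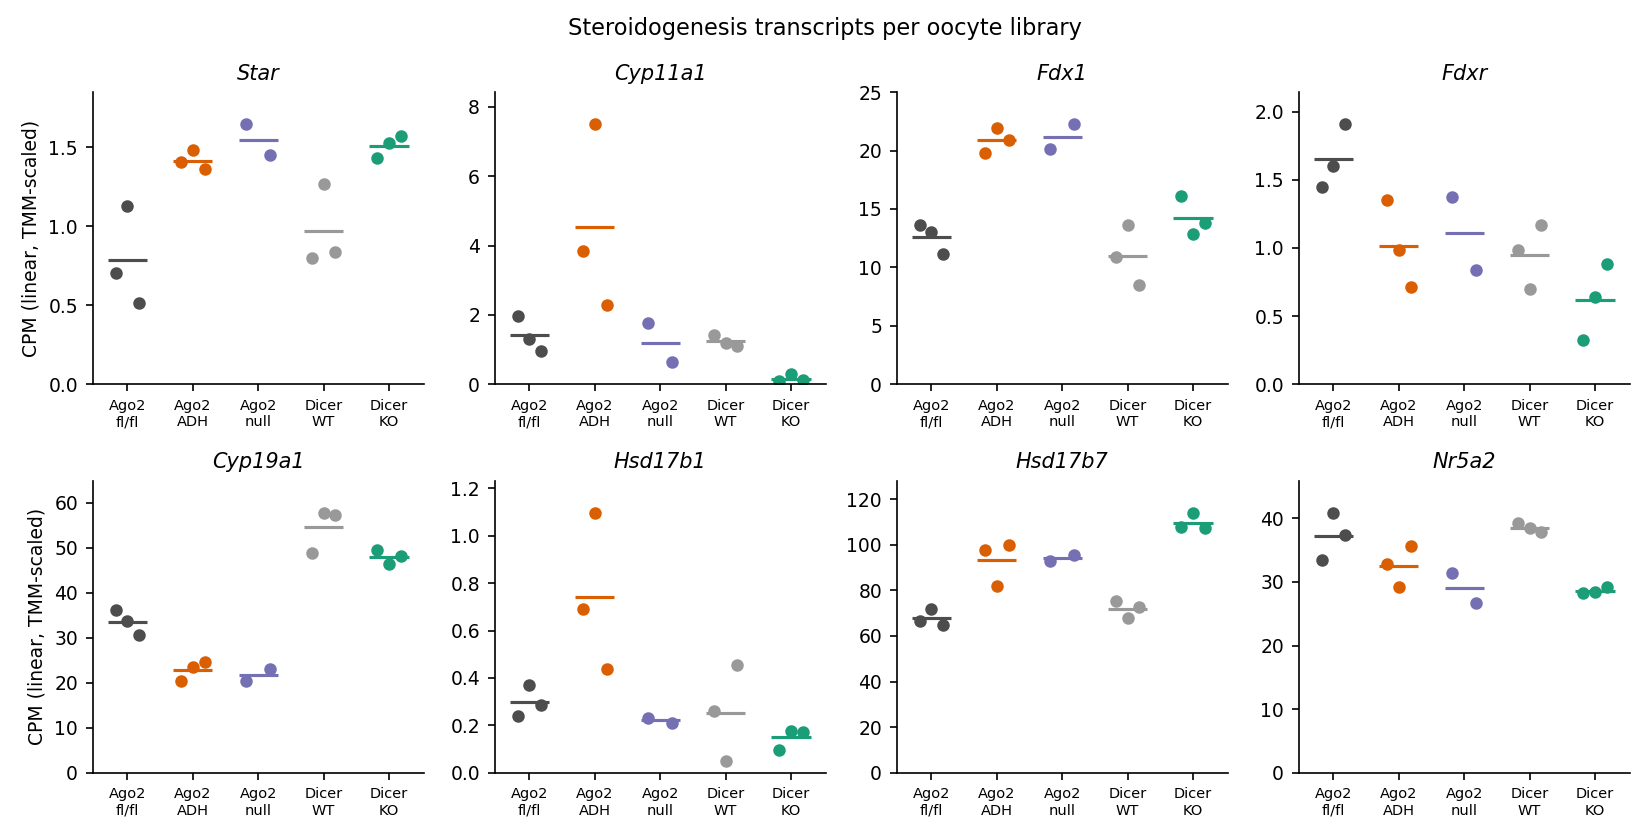
Level of each of the 8 genes in CPM, on a linear axis from 0 that differs between panels, by genotype. Points are libraries and bars are group means. Hsd17b7 was 64.7 to 71.9 CPM in Ago2 fl/fl and 93.1 to 95.6 in Ago2 null libraries, whereas Cyp11a1 was 2.29 to 7.49 in Ago2 ADH and 0.0976 to 0.284 in the libraries labelled Dicer KO.

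Ago2 ADH and Ago2 fl/fl oocytes differ in AGO2 cleavage, and also in Cre and in the Ago2 level given above, and these cannot be told apart. Between them 3 of the 8 members rose and 1 fell at an FDR of 1%. Cyp11a1, Fdx1 and Hsd17b7 rose and Cyp19a1 fell. Of all 18835 transcripts tested, 40.7% were called, 20.5% higher and 20.1% lower, so a share of 4 in 8 members is near the background. In Ago2 null against the same Ago2 fl/fl libraries 2 members rose (Fdx1 and Hsd17b7) and 1 fell (Cyp19a1), beside 37.2% of all transcripts, 18.1% higher and 19.1% lower. In the libraries labelled Dicer KO 1 rose (Hsd17b7) and 2 fell (Cyp11a1 and Nr5a2) of 7 tested, beside 34.5% of all transcripts, 16.7% higher and 17.8% lower. Hsd17b1 was not tested there because its counts were too low for the filter. The median log2 fold change of the members tested was 0.64 in Ago2 ADH, -0.26 in Ago2 null and -0.19 in the libraries labelled Dicer KO, where those of all transcripts were 0.007, 0.002 and -0.004.

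**Figure D2:**
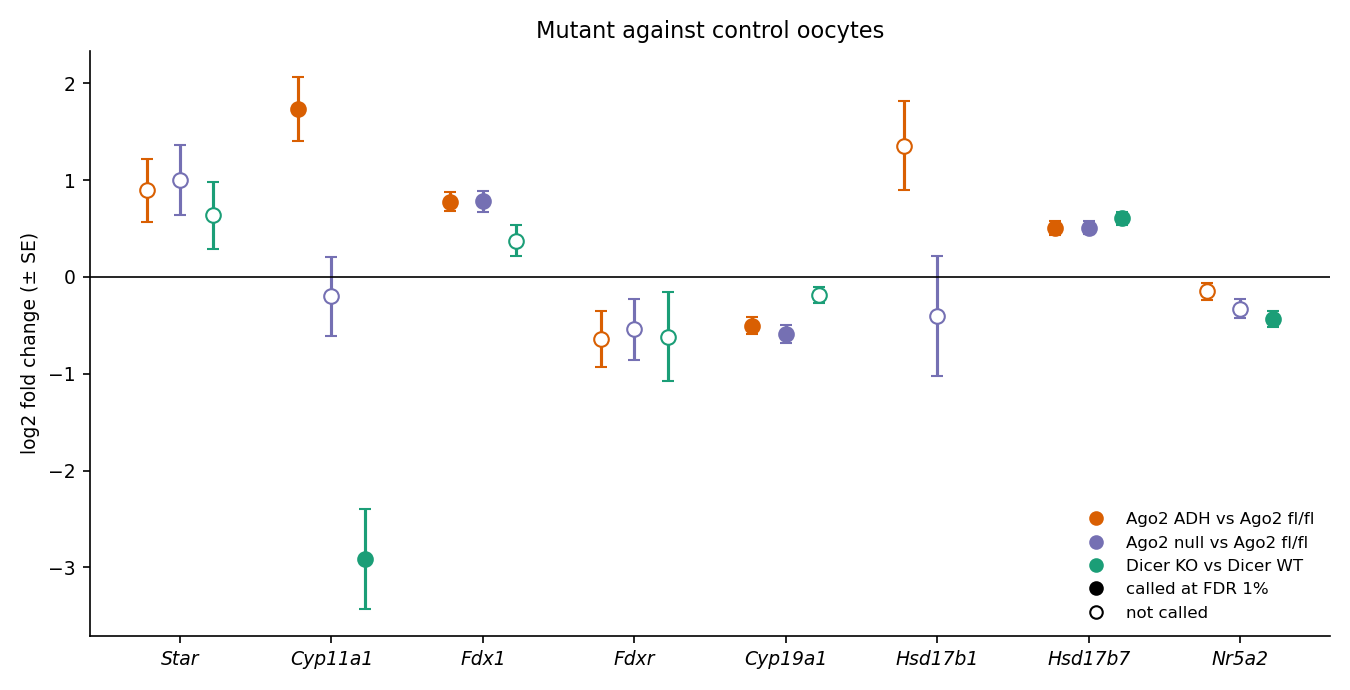
Log2 fold change of the 8 genes in each mutant against its control, with SE as bars. Filled points passed an FDR of 1% and open points did not. Cyp11a1 stood at 1.73 in Ago2 ADH and at -2.91 in the libraries labelled Dicer KO, and Hsd17b7 at 0.51, 0.51 and 0.61 in the 3 mutants.

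Star and Cyp11a1 open the chain. Star (chr8:25808474-25815982, GRCm38) had counts of 41, 67 and 27 in Ago2 fl/fl, 77, 81 and 59 in Ago2 ADH, 92 and 76 in Ago2 null, 31, 51 and 35 in Dicer WT and 44, 43 and 55 in the libraries labelled Dicer KO. In CPM every mutant library was above every library of its own control. None of the 3 differences passed, with log2 fold changes of 0.89 (SE 0.324, adjusted p = 0.027), 1.00 (SE 0.364, adjusted p = 0.0306) and 0.64 (SE 0.348, adjusted p = 0.146) by edgeR. Ago2 fl/fl replicate 2 was the highest control, and without it the first was 1.26 (adjusted p = 0.00703) and the second 1.38 (adjusted p = 0.00918). Stard3, a relative that moves cholesterol between endosomes and other membranes, had log2 fold changes of 0.04, 0.04 and -0.73, none of which passed.

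Cyp11a1 (chr9:57998024-58027031) was the one member whose response in Ago2 ADH and in Dicer KO differed past the threshold. Its counts were 114, 78 and 50 in Ago2 fl/fl and 211, 410 and 99 in Ago2 ADH, and in CPM these groups did not overlap. They were 99 and 33 in Ago2 null, and in CPM overlapped with Ago2 fl/fl. They were 55, 48 and 46 in Dicer WT and 3, 8 and 4 in the libraries labelled Dicer KO, close to the floor of 3 counts. Cyp11a1 was 3.32-fold higher in Ago2 ADH oocytes (log2 fold change 1.73, SE 0.329, adjusted p = 0.00022). It was 7.53-fold lower in the libraries labelled Dicer KO (log2 fold change -2.91, SE 0.519, adjusted p = 0.000144). In Ago2 null oocytes the log2 fold change was -0.20 (SE 0.407, adjusted p = 0.716, 95% interval -0.996 to 0.60).

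The Ago2 ADH change of Cyp11a1 exceeded its Dicer KO change by 4.61 on the log2 scale (SE 0.621, adjusted p = 3.48e-05). Of all transcripts tested for this difference 3.55% passed, and of the 8 members Cyp11a1 did. For the other 7 members the difference ran from -0.37 (Cyp19a1, adjusted p = 0.0667) to 2.07 (Hsd17b1, SE 0.886, adjusted p = 0.157). Ago2 ADH replicate 2 held the highest Cyp11a1 count, and without it the Ago2 ADH change was 1.18 (SE 0.299, adjusted p = 0.00276) and the difference 4.04. Without Dicer KO replicate 2, the highest of its group, the Dicer KO change was -3.50 (adjusted p = 0.000201) and the difference 5.19. Part of the Cyp11a1 exons (145 of 4804 bases, 3.02%) is shared with the non-coding gene Gm17322 on the same strand.

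Of the electron carriers of CYP11A1, Fdx1 rose in both Ago2 mutants and Fdxr passed in none. Fdx1 (chr9:51943023-51963602) had counts of 790, 772 and 584 in Ago2 fl/fl, 1087, 1202 and 903 in Ago2 ADH and 1125 and 1167 in Ago2 null oocytes. Both mutant groups lay above all controls in CPM, by 1.71-fold (SE of the log2 fold change 0.097, adjusted p = 1.96e-06) and 1.72-fold (SE 0.109, adjusted p = 1.82e-05). In Dicer WT it had 420, 547 and 355 counts and in the libraries labelled Dicer KO 495, 361 and 484, and in CPM these overlapped (log2 fold change 0.37, SE 0.160, adjusted p = 0.0643). The difference of the Ago2 ADH from the Dicer KO effect was 0.35 (SE 0.194, adjusted p = 0.282). Fdx1l, now Fdx2, which serves iron-sulphur cluster assembly, was at 24.0 CPM on average and at log2 fold changes of 0.01, 0.06 and 0.28, none past the threshold.

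Fdxr (chr11:115268024-115277101), the reductase that loads both ferredoxins, had counts of 84, 95 and 100 in Ago2 fl/fl, 74, 54 and 31 in Ago2 ADH and 77 and 44 in Ago2 null oocytes. Both mutant groups were below the control in CPM without overlap, yet neither passed (log2 fold change -0.64, SE 0.292, adjusted p = 0.0746, and -0.54, SE 0.316, adjusted p = 0.169). With 38, 28 and 49 counts in Dicer WT and 10, 18 and 31 in the libraries labelled Dicer KO the groups overlapped (log2 fold change -0.62, SE 0.456, adjusted p = 0.288). The 95% interval of the Ago2 ADH value was -1.21 to -0.068.

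The oestrogen enzymes differed in level and in response. Cyp19a1 (chr9:54165937-54268164) had counts of 2103, 1993 and 1607 in Ago2 fl/fl, 1122, 1285 and 1068 in Ago2 ADH and 1146 and 1212 in Ago2 null oocytes, and every mutant library was below every control. In Ago2 ADH it decreased by 0.50 on the log2 scale (SE 0.0865, adjusted p = 7.88e-05) and in Ago2 null by 0.59 (SE 0.0943, adjusted p = 7.05e-05). Counts were 1891, 2318 and 2398 in Dicer WT and 1520, 1303 and 1690 in the libraries labelled Dicer KO, where the CPM ranges overlapped (log2 fold change -0.19, SE 0.0818, adjusted p = 0.0668). The level itself was higher in both Dicer groups, at 46.3 to 57.7 CPM, than in Ago2 fl/fl at 30.6 to 36.2 CPM. The lines and their preparation cannot be told apart there.

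Hsd17b1 (chr11:101077968-101081188), which turns oestrone into oestradiol in granulosa cells, was near the limit of detection. It had counts of 14, 22 and 15 in Ago2 fl/fl, 38, 60 and 19 in Ago2 ADH, 13 and 11 in Ago2 null, 10, 2 and 19 in Dicer WT and 3, 5 and 6 in the libraries labelled Dicer KO. Its Ago2 ADH libraries were above the controls in CPM (log2 fold change 1.36, SE 0.456, adjusted p = 0.0179), which did not pass, and Ago2 ADH replicate 2 was again the highest. Without that library the value was 0.98 (adjusted p = 0.145). In Ago2 null oocytes the log2 fold change was -0.40 (SE 0.622, adjusted p = 0.618).

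Hsd17b7 (chr1:169949535-169969242) was the member that rose in all 3 mutants. Its counts were 3868, 4260 and 3395 in Ago2 fl/fl, 5353, 4474 and 4325 in Ago2 ADH, 5208 and 5018 in Ago2 null, 2907, 2718 and 3040 in Dicer WT and 3317, 3203 and 3758 in the libraries labelled Dicer KO. In CPM no mutant library overlapped with its controls. It was 1.42-fold higher in Ago2 ADH (adjusted p = 1.25e-05), 1.42-fold in Ago2 null (adjusted p = 1.06e-05) and 1.52-fold in the libraries labelled Dicer KO (adjusted p = 5.53e-07), with SEs of 0.0674 to 0.0738 on the log2 scale. The Ago2 comparisons share their controls. Hsd17b12, a relative that elongates fatty acids and can form oestradiol, had log2 fold changes of -0.12, -0.10 and -0.003, none of which passed.

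Nr5a2 (chr1:136842562-136960448), the receptor upstream of the chain, had counts of 1943, 2422 and 1965 in Ago2 fl/fl, 1796, 1597 and 1542 in Ago2 ADH and 1759 and 1398 in Ago2 null oocytes. In CPM Ago2 ADH overlapped with its control (log2 fold change -0.15, SE 0.0894, adjusted p = 0.172) and Ago2 null lay below it without passing (-0.33, SE 0.0997, adjusted p = 0.0118). The Ago2 null value passed without Ago2 null replicate 1 (-0.45, adjusted p = 0.00354) and without Ago2 fl/fl replicate 1 (-0.40, adjusted p = 0.00334). Counts were 1520, 1543 and 1588 in Dicer WT and 868, 801 and 1023 in the libraries labelled Dicer KO, where Nr5a2 fell by 0.43 on the log2 scale (SE 0.083, adjusted p = 0.000307). Its relative Nr5a1, the main steroidogenic regulator of theca, granulosa and adrenal cells, had 1 to 38 counts in every library, and no comparison that tested it passed.

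Ago2 ADH and Ago2 null oocytes were also compared directly. None of the 8 members passed by edgeR or by DESeq2, beside 0.119% of all transcripts by edgeR, and 2 of the 8 had an unadjusted p under 0.05, beside 1931 of all 19306 transcripts (10%). These were Cyp11a1 (log2 fold change 1.91, SE 0.417, adjusted p = 0.0584, 95% interval 1.10 to 2.73) and Hsd17b1 (1.74, SE 0.555, adjusted p = 0.272). Both were higher in Ago2 ADH without overlap. The other 6 lay between -0.13 and 0.16. For Fdx1 the 95% interval of the difference was -0.22 to 0.18 and for Hsd17b7 -0.19 to 0.14.

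Follicle cell markers were measured beside the members. The 7 granulosa markers called defining here (Fshr, Foxl2, Amh, Amhr2, Inha, Nr5a1 and Hsd3b1) were chosen as not known to be oocyte transcripts. Nr5a1, and Hsd3b1 as an enzyme of the chain, are not limited to granulosa cells. The 7 summed to 2.88 to 4.05 CPM in Ago2 fl/fl, 5.94 to 8.90 in Ago2 ADH, 3.98 to 5.58 in Ago2 null, 1.62 to 1.72 in Dicer WT and 1.04 to 3.05 in the libraries labelled Dicer KO. Foxl2, Amh and Amhr2 had at most 14 counts in any library, Foxl2 was at 0 in all Ago2 fl/fl and Dicer WT libraries, and 0 to 3 of the 7 markers were at 0 in a library. The sum was therefore highest in the Ago2 ADH libraries, as was Cyp11a1, and Ago2 ADH replicate 2 was highest in both. Hsd3b1, itself a steroidogenic enzyme, made most of that rise, and the other 6 markers summed to 2.02 to 2.34 CPM in Ago2 fl/fl, 2.27 to 2.80 in Ago2 ADH, 2.06 to 2.54 in Ago2 null, 0.854 to 1.10 in Dicer WT and 0.228 to 0.799 in the libraries labelled Dicer KO. The wider list of 17 granulosa and cumulus genes summed to 84.7 to 86.3 CPM in Ago2 fl/fl, 91.8 to 101.7 in Ago2 ADH, 98.8 to 99.5 in Ago2 null, 85.4 to 89.7 in Dicer WT and 106.7 to 112.8 in the libraries labelled Dicer KO. Esr2, an oestrogen receptor of granulosa cells, made most of that, with 73.0 to 104.3 CPM in every library.

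The defining markers did not move together. In Ago2 ADH oocytes Hsd3b1, the enzyme after CYP11A1, rose by 2.10 on the log2 scale (SE 0.251, adjusted p = 1.16e-06) from 102, 61 and 45 counts to 291, 334 and 159. Fshr, the follicle-stimulating hormone receptor, fell by 1.67 (SE 0.470, adjusted p = 0.006), from 53, 35 and 58 counts to 12, 23 and 6. Inha, an inhibin subunit, stood at 0.98 (SE 0.330, adjusted p = 0.0188) without passing, and Nr5a1 at 0.38 (adjusted p = 0.578). Without Ago2 ADH replicate 2 Hsd3b1 was still 1.94 higher (adjusted p = 7.93e-06) and Fshr at -2.19. In Ago2 null oocytes Hsd3b1 stood at 1.06 (adjusted p = 0.0115) while Cyp11a1 stood at -0.20.

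Cyp11a1 and Hsd3b1 did not keep one ratio. Within a library there were 1.11 to 1.28 Cyp11a1 counts per Hsd3b1 count in Ago2 fl/fl, 0.623 to 1.23 in Ago2 ADH, 0.327 to 0.582 in Ago2 null, 1.45 to 2.09 in Dicer WT and 0.0506 to 0.348 in the libraries labelled Dicer KO. The last group had 22 to 33 Hsd3b1 counts in its controls and 25, 23 and 79 of its own (log2 fold change 0.83, adjusted p = 0.14), so Hsd3b1 was measured there while Cyp11a1 was near the floor. Fshr counts were 15, 26 and 11 in Dicer WT and 4, 2 and 2 in the libraries labelled Dicer KO, lower without overlap and too few to test. Amhr2 was also lower there, at 0 counts against 1 to 5, whereas Fst was higher, at 9 to 19 counts against 2 to 7. Of the wider list 7 genes were tested there, and 1 was higher and 0 lower, beside 16.7% and 17.8% of all transcripts. Their log2 fold changes ran from -0.70 to 1.69, with a median of 0.82. For Cyp19a1 there were 27.7 to 845 counts per Fshr count over the 14 libraries. The part of follicle cell RNA in the Cyp11a1, Hsd17b1 and Cyp19a1 values was not tested.

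**Figure D3:**
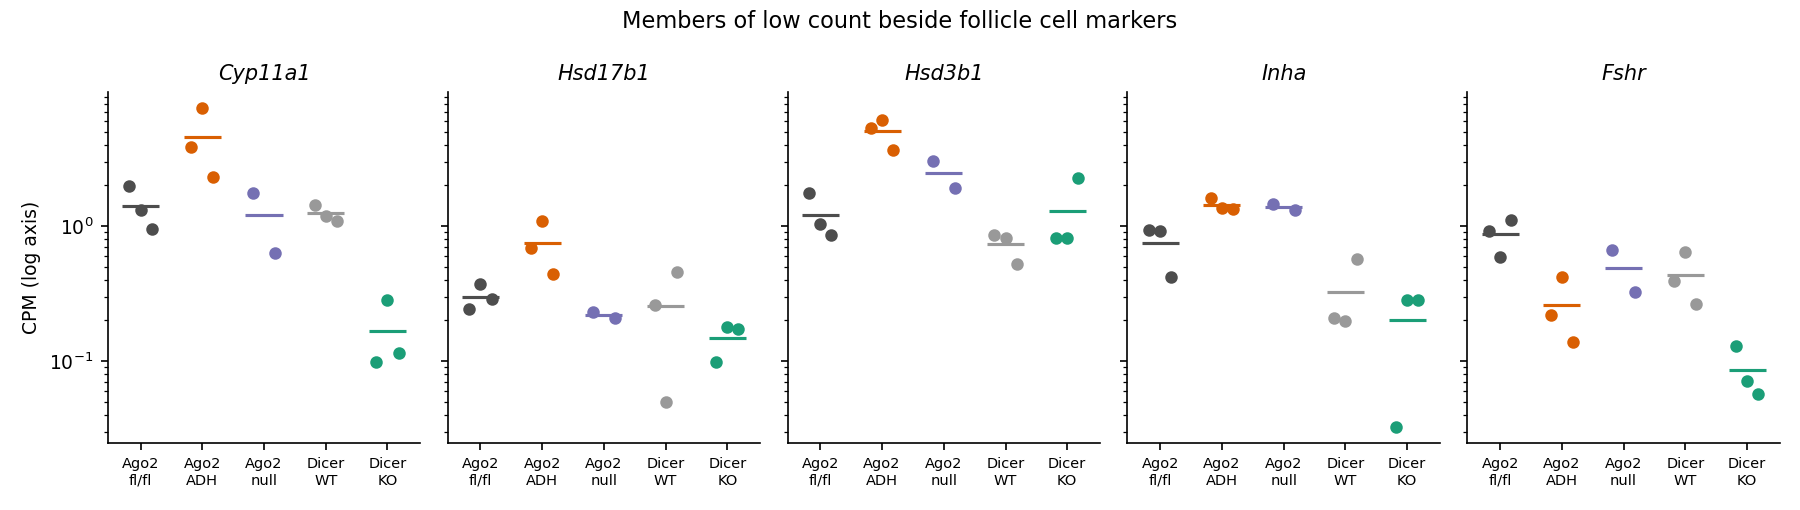
Cyp11a1 and Hsd17b1 beside 3 follicle cell markers (Hsd3b1, Inha and Fshr) in CPM on a shared log axis, by genotype. Points are libraries and bars are means. In Ago2 ADH libraries Cyp11a1 and Hsd3b1 were above all Ago2 fl/fl libraries and Fshr below them. In the libraries labelled Dicer KO Cyp11a1 and Fshr were below their control, and Hsd17b1, Hsd3b1 and Inha overlapped with it.

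Of the markers of other cells, those of theca, stroma and blood were low. Cyp17a1, the theca androgen enzyme between HSD3B1 and CYP19A1, had at most 8 counts in a library and Lhcgr at most 12, and the 9 theca and stroma genes summed to 0.373 to 1.59 CPM. The 2 blood markers found summed to at most 0.0747 CPM. The 6 cumulus genes of the ovulatory response summed to 0.763 to 3.84 CPM, lowest in an Ago2 ADH library. Of the 2 tested in Ago2 ADH Ptgs2, the prostaglandin synthase of that response, fell by 1.89 on the log2 scale (adjusted p = 0.000222). The other, Has2, stood at -1.01 without passing (adjusted p = 0.043). In the libraries labelled Dicer KO Has2 fell by 1.97 and passed, whereas Ptgs2 stood at 0.80 without passing. In Ago2 null 3 were tested, from -1.59 to 0.67, and none passed, beside 37.2% of all transcripts. The 4 endothelium genes summed to 42.1 to 60.2 CPM, of which Pecam1, an adhesion molecule, made 32.4 to 44.0 CPM and passed in no mutant. Tek made 7.77 to 14.2 CPM, whereas Cdh5 had at most 1 count in a library. Kdr, the receptor of vascular endothelial growth factor, had 34 to 90 counts in the controls and 1 to 16 in the mutants. It was lower by log2 fold changes of -2.35 in Ago2 ADH (adjusted p = 0.00134), -2.56 in Ago2 null (adjusted p = 0.00152) and -3.21 in the libraries labelled Dicer KO (adjusted p = 0.000284). The part of such cells in the values of the members was not tested. The 12 oocyte markers summed to 14460 to 22440 CPM, with none at 0.

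The genes around the members were taken from 3 lists. Of 33 other steroidogenesis genes 22 passed the filter in the Ago2 ADH comparison, and 4 were higher and 2 lower, beside 20.5% and 20.1% of all transcripts. The numbers were 1 and 4 of 23 in Ago2 null, beside 18.1% and 19.1% of all transcripts. In the libraries labelled Dicer KO they were 1 and 3 of 19, beside 16.7% and 17.8%. Hsd3b1 (2.10), Hsd17b10, a mitochondrial dehydrogenase (0.82, SE 0.169, adjusted p = 0.000483), and Scarb1, the receptor that takes up cholesterol from lipoproteins (-0.69, SE 0.102, adjusted p = 1.43e-05), led in Ago2 ADH. Scarb1 also fell in Ago2 null by 0.86 (adjusted p = 5.82e-05) and in the libraries labelled Dicer KO by 1.15 (adjusted p = 3.85e-05), from 380, 376 and 496 counts to 111, 151 and 177. In Ago2 null Hsd17b8 rose (0.55) and Por, the reductase of microsomal P450 enzymes, fell (-0.52, adjusted p = 0.000222). In the libraries labelled Dicer KO Hsd17b10 rose (0.66) and Por fell (-0.47, adjusted p = 0.00205). The list median in Ago2 ADH was 0.02, beside 0.007 for all transcripts.

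Of 25 cholesterol synthesis genes 24 were tested in each comparison. In Ago2 ADH 5 were higher and 7 lower, in Ago2 null 6 and 4, and in the libraries labelled Dicer KO 5 and 4. Of all transcripts 40.7%, 37.2% and 34.5% were called in these comparisons, in either direction. Without Ago2 ADH replicate 2 the Ago2 ADH numbers were 5 and 6, and the other steroidogenesis list was again 4 and 2, beside 7292 of all 19119 transcripts. Cyp51, the sterol demethylase, rose by 1.121 (SE 0.0919), 1.122 (SE 0.0962) and 1.143 (SE 0.0814) in the 3 mutants, with adjusted p of 7.27e-09, 6.28e-08 and 1.26e-09. Pmvk, a kinase of the mevalonate pathway, rose by 1.74 (adjusted p = 6.63e-05) and 1.95 (adjusted p = 5.59e-05) in the Ago2 mutants, from 30 to 50 counts in Ago2 fl/fl to 88 to 161. Ebp, a sterol isomerase, rose by 1.17 in Ago2 null (adjusted p = 0.00495). Insig2, which holds sterol-regulated factors in the endoplasmic reticulum, fell by 1.01 in Ago2 ADH (adjusted p = 3.22e-05) and by 1.27 in the libraries labelled Dicer KO (adjusted p = 9.69e-05). There Msmo1, a sterol oxidase, fell by 1.19 (adjusted p = 2.84e-05).

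Nsdhl, the sterol dehydrogenase just before HSD17B7 in cholesterol synthesis, was named after its values were seen. It fell by 0.48 in Ago2 ADH (adjusted p = 7.68e-06) and by 0.63 in Ago2 null (adjusted p = 1.05e-05), and rose by 0.37 in the libraries labelled Dicer KO (adjusted p = 0.0063). The difference of the Ago2 ADH from the Dicer KO effect was -0.90 (SE 0.117, adjusted p = 2.15e-05). For Hsd17b7 that difference was -0.15 (SE 0.102, adjusted p = 0.388).

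Of 9 steroid receptor genes 6 were tested, and 0 passed in Ago2 ADH by edgeR or by DESeq2, with 1 at an unadjusted edgeR p under 0.05, beside 40.7% and 57.4% of all transcripts by these edgeR rules. Esr2 rose by 0.28 in Ago2 null (adjusted p = 0.00176) and by 0.35 in the libraries labelled Dicer KO (adjusted p = 0.000192), and Pgrmc1, a membrane progesterone receptor component, rose there by 0.42 (adjusted p = 0.00643).

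**Figure D4:**
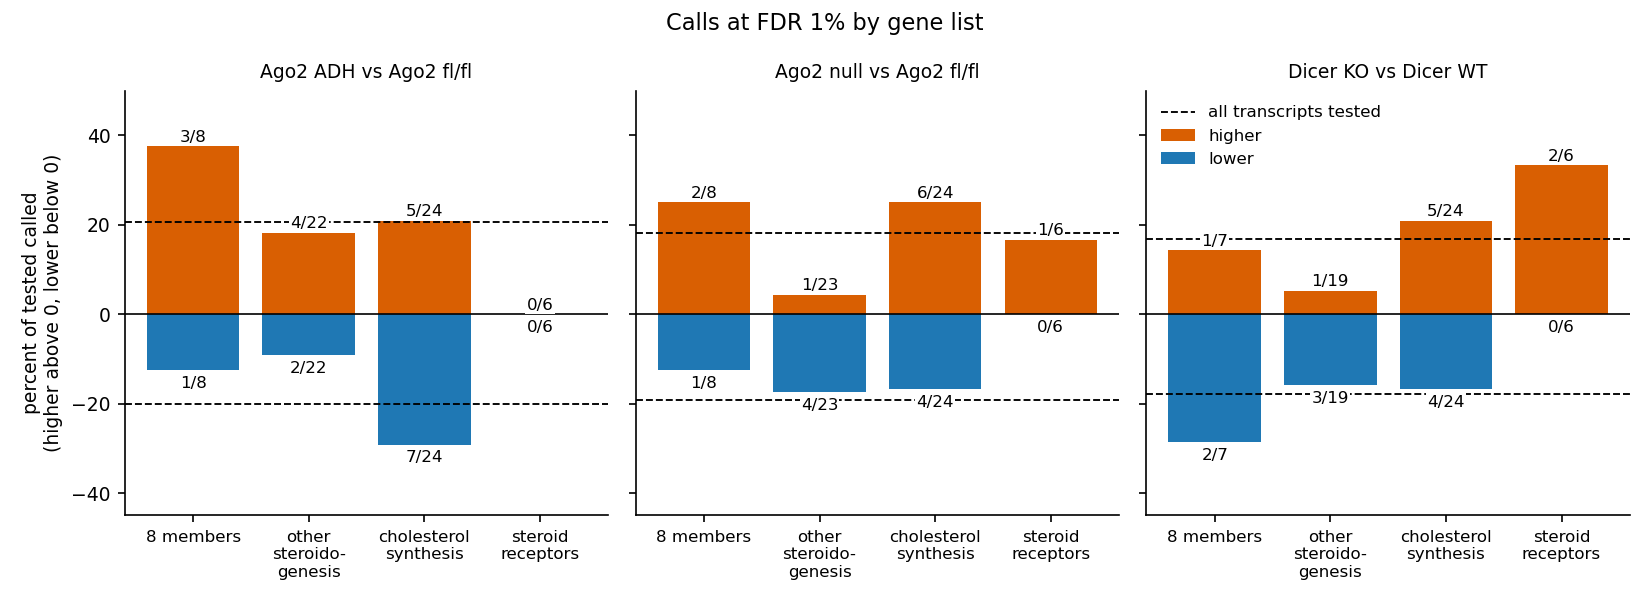
Percent of the tested genes of each list called higher (above 0) or lower (below 0) at an FDR of 1% in the 3 comparisons, with the counts written at the bars. Dashed lines mark the percent of all transcripts tested, such as 20.5% higher and 20.1% lower in Ago2 ADH. Only 7 members were tested in the libraries labelled Dicer KO.

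Genes most like each member over the 14 libraries were found by the root mean square (RMS) difference of centred log2 values among 11661 genes. Any offset between the Ago2 and the Dicer libraries enters these values and was not separated. The nearest genes are also close because they were picked as the closest. For Cyp19a1 these were Jag1 (0.103), Clk1 (0.121) and Prrg1 (0.122), where the median gene differed by 0.629. For Hsd17b7 Iqcb1 was nearest at 0.067 and for Nr5a2 Abr at 0.079. Fdx1 was nearest to Rpsa at 0.149, Star to Polr3c at 0.14 and Fdxr to Chrng at 0.161. For Cyp11a1 Tmem229b was nearest at 0.626, against a median of 1.03. The SD of Cyp11a1 over the libraries was 1.03 on this log2 scale, against 0.203 to 0.551 for the other members compared, and the RMS difference was not scaled by spread. Only genes with a mean of at least 1 CPM were searched, which left out Inha, Fshr and Nr5a1. Hsd17b1 was under 1 CPM and was left out.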

How the data were processed

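RNA-seq was analysed in 14 oocyte libraries, grouped by the sample labels. The authors deposited unnormalized read counts for each RefSeq transcript. They amplified cDNA without molecular identifiers, aligned paired-end reads to mm10 with TopHat, keeping up to 100 alignments, and counted with htseq-count in intersection-strict mode without strand. The submitters' processing notes name TopHat2 2.0.7, HTSeq 0.6.1 and DESeq 1.10.0. A read counts on every transcript that contains it, so overlapping genes are not told apart. Floors of 3 counts cover counting error only. The 5 tallies of reads off transcripts were left out.

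Of 26495 transcripts 26081 were paired with symbols by RefSeq accession and 113 by GENCODE, and lengths came from GENCODE. Coordinates are RefSeq's in GRCm38. The groups of a comparison were fitted together with edgeR 4.0.16 (R 4.3.3; filterByExpr with minimum count 10 and minimum total 15, TMM, quasi-likelihood test, Benjamini-Hochberg over all transcripts, FDR 1%). SE is the absolute log2 fold change divided by the square root of F, and 95% intervals are the fold change ± 1.96 SE, which holds the spread between libraries. CPM uses TMM-scaled sizes over 14 libraries. The fit was tested on counts simulated for the Ago2 ADH comparison only, with a fixed dispersion and changes in transcripts above a minimum expected count. This does not cover members of low count or wide spread. Members and lists were chosen with earlier results of these data known. Named genes are all members, their relatives Fdx1l, Hsd17b12, Stard3 and Nr5a1, and, per list and comparison, the 3 called genes with the largest change and a mean of at least 1 CPM. Genes most alike were sought on log2(CPM + 0.5). Motifs were chosen after the counts were seen. Alternatives were DESeq2 1.42.0 with independent filtering off, RLE normalization, no filter, a minimum of 10 counts per library, FDR 5%, a single transcript for each gene, one fit of all groups, leaving out each replicate, a replicate block and, added after seeing the data, raw library sizes and the lists without Ago2 ADH replicate 2.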

Additional observations from a re-analysis of the deposited data

Results flagged for a closer look

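The change of Cyp11a1 in Ago2 ADH oocytes exceeded that in the libraries labelled Dicer KO by 4.61 on the log2 scale, by a test of the difference itself. The share of non-unique alignments as defined above, which no comparison used, was higher in every mutant library than in its controls. The lowest values were 57.3% in Ago2 ADH, 57.0% in Ago2 null and 44.4% in the libraries labelled Dicer KO.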

How the results depend on the processing

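No member reversed, and none that passed the threshold lost it, in any fit that tested it. Of 266 values with 1 library left out, 262 kept their side of the threshold and 4 passed it, which were Star in both Ago2 comparisons without Ago2 fl/fl replicate 2 and Nr5a2 in Ago2 null without Ago2 null replicate 1 and without Ago2 fl/fl replicate 1. Nr5a2 in Ago2 null also passed with DESeq2 (-0.33), no filter (-0.33), all groups in one fit (-0.36) and raw library sizes (-0.35). Hsd17b1 in Ago2 ADH passed with at least 10 counts in every library (1.37). At an FDR of 5%, 6 members passed in Ago2 ADH and 5 in Ago2 null, beside 52.5% and 49.2% of all transcripts. Between Ago2 ADH and Ago2 null, 1 member (Cyp11a1) passed with no filter. With at least 10 counts in every library, 0 members differed in response between Ago2 ADH and Dicer KO, since Cyp11a1 was filtered out.

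With the replicate block, 1 member (Cyp11a1) passed between Ago2 ADH and Ago2 null, all calls there rose from 23 to 142, and no other member's call changed. Replicate numbers did not pair the libraries (correlations of -0.142 to 0.058). All calls between Ago2 ADH and Ago2 null numbered 81 with DESeq2, 94 with no filter, 56 at an FDR of 5%, 9 without Ago2 ADH replicate 1, and 13 and 6 without Ago2 null replicates 1 and 2. For the difference between effects they numbered 692, and 1104 with DESeq2, 1638 at an FDR of 5% and 439 without Ago2 ADH replicate 1. On raw library sizes the mean CPM in the libraries labelled Dicer KO was 45.9 for Cyp19a1, 105 for Hsd17b7 and 27.4 for Nr5a2. Counts were lowest for Hsd17b1, Fdxr, Star and Cyp11a1, at 2 to 410 in a library.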
